A study of Mus musculus with 20 samples.

Results

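The 10 genes described here were Itgav, Ecm1 and Ctsk, which were picked from these data for higher values in both mutant strains, and 7 genes that encode partner subunits, ligands or a latent growth factor carrier of alpha-v integrins, namely Itgb1, Itgb3, Itgb5, Itgb8, Fn1, Vtn and Ltbp1. They are 10 of the 48795 genes in the deposited table. The study sequenced RNA from whole mouse hearts at E13.5, 5 hearts in each of 4 groups, to compare 2 mouse models of Down syndrome with their own wild-type (WT) littermates. Dp3Tyb mice carry a duplication on chromosome 16 that runs from Mir802 to Zbtb21, and all 5 Dp3Tyb hearts are labelled as having heart defects. Ts1Rhr mice carry a shorter duplication on the same chromosome, from Cbr1 to Fam3b. The labels name heart defects for Ts1Rhr replicates 1 and 2 and none for replicates 3 to 5, and all 5 were kept as 1 group by genotype. In the text of the study the Ts1Rhr strain is free of heart defects. Strains were on the C57BL/6J background, the WT hearts carry 2 copies of the region, and no group was treated. In both strains the duplication is in the germline, so no cell type of the heart is without it. Replicate numbers only name a heart, and mutant hearts were set against WT hearts from the litters of the same strain.

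Integrins are receptors made of an alpha and a beta subunit that hold cells to the extracellular matrix. ITGAV, the alpha-v subunit, pairs with the beta subunits encoded by Itgb1, Itgb3, Itgb5, Itgb6 and Itgb8 and binds an arginine-glycine-aspartate motif in fibronectin (Fn1), vitronectin (Vtn) and the latent form of transforming growth factor beta (TGF-β), which LTBP1 tethers to the matrix and which several alpha-v integrins can activate. ECM1 is a secreted glycoprotein of the matrix, and cathepsin K, the product of Ctsk, is a cysteine protease that degrades collagen and is best known from osteoclasts. In the embryonic heart, TGF-β signalling and matrix turnover take part in the remodelling of the endocardial cushions into valves and septa.

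Libraries held between 6.60 and 19.6 M reads (mega, M), and between 17853 and 21275 genes had at least 1 read. The share of reads from mitochondrially encoded genes ran from 4.85% to 19.5% and was above 10% in 7 libraries, WT (Dp3Tyb littermates) replicate 5, Dp3Tyb replicate 5, WT (Ts1Rhr littermates) replicates 1, 2 and 4, and Ts1Rhr replicates 1 and 2. The Ts1Rhr hearts in this set are the hearts labelled with defects, so leaving out these libraries leaves out those hearts too. The genotype labels were checked on 6 genes present in 3 copies in both strains, whose log2 fold changes lay between 0.46 and 0.75 in Dp3Tyb and between 0.29 and 0.79 in Ts1Rhr, with no overlap between mutant and WT hearts for 5 of 6 in each strain. For 3 genes expected in 3 copies in Dp3Tyb only, 3 of 3 did not overlap in Dp3Tyb and 0 of 3 in Ts1Rhr, where log2 fold changes lay between -0.09 and 0.06. Cbr1, named at the boundary of Ts1Rhr, was one of these 3. Marker genes of cardiomyocytes summed to between 300473 and 514712 normalised reads per heart, so the tissue carried its defining RNA. Markers of lung and foregut epithelium, a neighbouring tissue, summed to between 4.57 and 602 and differed widely between hearts of every group. In whole-heart RNA, fewer cells of a type and less RNA per cell cannot be told apart.

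Values are normalised read counts, that is reads divided by a library size factor. Log2 fold changes were estimated by limma on log2(value + 1), with their standard error (SE), over all genes that reached 10 in 5 or more libraries of a fit. That filter left 9 of the 10 genes, since Vtn did not pass. Because Itgav, Ecm1 and Ctsk were chosen for their values, their differences from WT are given as a description with no test. The other 6 genes were tested, with p-values adjusted over 14763 genes in Dp3Tyb and 14867 in Ts1Rhr by the Benjamini-Hochberg method and a threshold of 0.05.

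In WT hearts, expressed per kilobase (kb) of the longest annotated transcript, Fn1 was the highest of the 10 genes with a median of 3633 normalised reads per kb over 10 hearts, followed by Itgb1 at 2946. Ltbp1 was at 657.5, Itgb5 at 379, Itgav at 293 and Ecm1 at 199 on this per-kb scale. Ctsk was at 79.1, Itgb3 at 61.3 and Itgb8 at 51.5. Per length, then, Itgb1 and Itgb5 RNA exceeded Itgav RNA in these hearts, and Itgb3 and Itgb8 were lower. Within groups, the coefficient of variation of Itgb5 was 12.6% to 16.3%, against 1.53% to 8.25% for Itgav.

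Promoter sequence is shown for Itgav, Ecm1 and Ctsk because these 3 genes were higher in both strains although none lies on chromosome 16. RefSeq windows of the GRCm38.p6 assembly that span 250 bases before to 50 bases after 1 RefSeq start per gene were used, and 8 of the 10 genes had an entry. Itgav lies on chromosome 2, at 83722303 to 83806917, and its window is chr2:83724147-83724446 on the plus strand. Ecm1 lies on chromosome 3, at 95734147 to 95739876, and its window is chr3:95739520-95739819 on the minus strand. Ctsk lies on chromosome 3, at 95499210 to 95509387, and its window is chr3:95498960-95499259 on the plus strand. The starts used for Itgav and Ecm1 lie inside the outermost limits of these genes, while that of Ctsk is at its limit. Sequences run 5′ to 3′, and capitals mark matches to 6 motifs searched on both strands.
Itgav: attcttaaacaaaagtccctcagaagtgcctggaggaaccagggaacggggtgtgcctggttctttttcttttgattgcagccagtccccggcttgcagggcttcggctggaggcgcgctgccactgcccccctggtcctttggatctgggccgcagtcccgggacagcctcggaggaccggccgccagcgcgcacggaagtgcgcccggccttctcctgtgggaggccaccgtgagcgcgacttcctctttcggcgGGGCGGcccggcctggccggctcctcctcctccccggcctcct
Ecm1: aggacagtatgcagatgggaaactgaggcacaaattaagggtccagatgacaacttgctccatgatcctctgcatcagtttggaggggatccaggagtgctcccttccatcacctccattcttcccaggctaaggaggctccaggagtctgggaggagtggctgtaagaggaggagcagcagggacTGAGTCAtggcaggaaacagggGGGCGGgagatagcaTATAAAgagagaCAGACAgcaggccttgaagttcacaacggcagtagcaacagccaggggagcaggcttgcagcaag
Ctsk: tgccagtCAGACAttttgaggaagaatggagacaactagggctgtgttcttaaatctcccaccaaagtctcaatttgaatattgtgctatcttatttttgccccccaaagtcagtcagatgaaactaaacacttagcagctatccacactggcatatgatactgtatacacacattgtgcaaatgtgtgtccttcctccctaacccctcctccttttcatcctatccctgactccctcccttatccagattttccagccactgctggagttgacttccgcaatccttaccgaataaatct
The AP-1 motif was searched as TGANTCA. The motif of TEAD factors was searched as GGAATG. That of SMAD factors was searched as CAGACA. The GC box was searched as GGGCGG. The TATA motif was searched as TATAAA. The sixth motif, CCAAT, and that of TEAD factors were found in none of these 3 windows, against 37.4% and 14.7% of all windows. The Itgav window was 67.3% G or C and held a GC box 8 bases past the start, a match found in 35.6% of 32817 windows of the same length. The Ecm1 window, at 54.7% G or C, held an AP-1 motif at position -64 (7.81% of windows), a GC box at -42, a TATA motif at -27 (13.6% of windows) and a SMAD motif at -15 (21.0% of windows), and these matches did not overlap each other. The Ctsk window was 43.7% G or C and held a single match, a SMAD motif at -243. No motif was found in all 3 windows, which says only that these letters are not in these bases, and a match is a description and not a bound site.

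Itgav was higher in both mutant strains in every heart. Normalised reads were 2147, 2235, 2179, 2174 and 2164 in the WT littermates of Dp3Tyb and 2534, 2387, 2464, 2562 and 2516 in Dp3Tyb hearts, replicates 1 to 5 in order. In the other litters they were 2060, 2186, 2169, 2031 and 1766 in WT hearts and 2487, 2586, 2505, 2350 and 2548 in Ts1Rhr hearts. All 5 mutant hearts lay above all 5 WT hearts in each strain, and the lowest WT value of the series was replicate 5 of the Ts1Rhr littermates. Mean values were 2493 ± 69.3 in Dp3Tyb against 2180 ± 33.4 in WT (SD, n = 5 each), and 2495 ± 89.6 in Ts1Rhr against 2043 ± 169 in WT. The log2 fold change was 0.19 ± 0.05 (SE) in Dp3Tyb, or 1.14-fold, and 0.29 ± 0.07 in Ts1Rhr, or 1.22-fold. Both mutant groups had almost equal means, while the WT littermates of Ts1Rhr were lower than those of Dp3Tyb by 0.10 ± 0.05 on the log2 scale. Leaving out single hearts gave 0.24 (without WT replicate 5) to 0.32 in Ts1Rhr, and array weights gave 0.22.

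**Figure D1:**
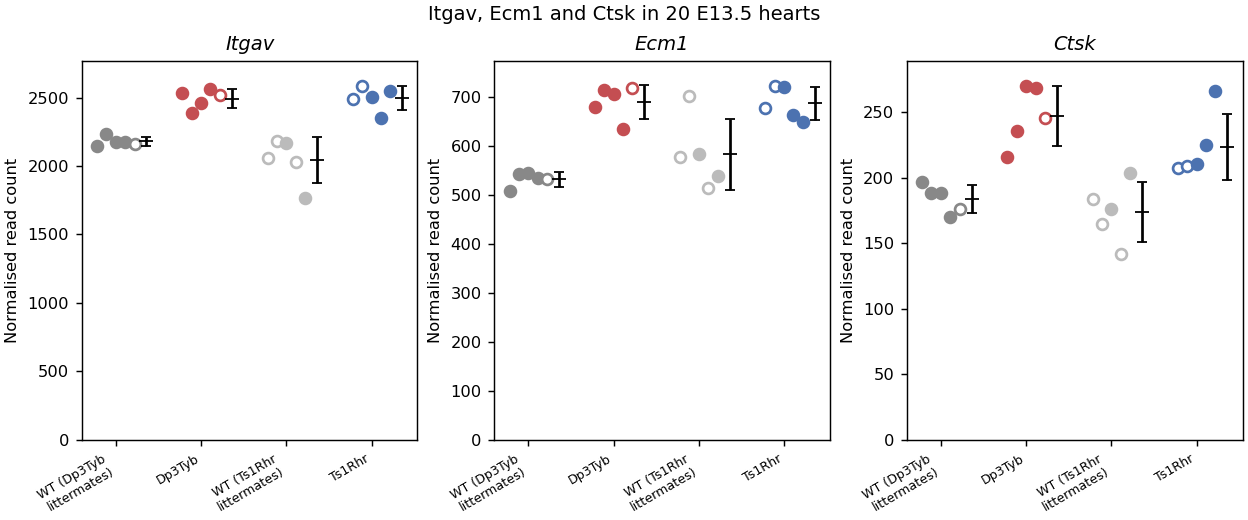
Normalised read counts of Itgav, Ecm1 and Ctsk in each of 20 E13.5 hearts, by group, with open points for libraries with over 10% mitochondrial reads and the mean ± SD of 5 hearts as a bar beside each group. Mutant and WT hearts do not overlap for Itgav and Ctsk in either strain, and for Ecm1 they overlap in the Ts1Rhr litters through 1 WT heart at 701.

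Ecm1 was higher in every Dp3Tyb heart, and the groups overlapped in the Ts1Rhr litters. Normalised reads were 507, 543, 544, 535 and 531 in the WT littermates of Dp3Tyb and 679, 713, 705, 635 and 717 in Dp3Tyb. The WT littermates of Ts1Rhr held 577, 701, 582, 513 and 539 and the Ts1Rhr hearts 678, 722, 720, 663 and 649. WT replicate 2, at 701, gave the overlap, the other 4 WT hearts lay below all 5 Ts1Rhr hearts, and that library had 10.5% mitochondrial reads. Only 2 of 5 Ts1Rhr hearts were above every WT heart. The log2 fold change of Ecm1 was 0.37 ± 0.06 (SE, 1.30-fold) in Dp3Tyb and 0.24 ± 0.08 (1.18-fold) in Ts1Rhr. The Ts1Rhr value was 0.31 without WT replicate 2, 0.20 without WT replicate 4 and 0.15 with array weights. The mutant means were 690 ± 34.2 and 687 ± 33.3 (SD, n = 5 each), so as for Itgav the mutant groups were alike in level and the WT groups were farther apart, at 532 ± 15.1 and 582 ± 72.1. The WT littermates of Ts1Rhr were above those of Dp3Tyb by 0.12 ± 0.07 on the log2 scale, or 0.18 ± 0.06 with array weights.

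Ctsk was the least abundant of the 3 and had the highest log2 fold changes of the 3 over all hearts, though not in Ts1Rhr without the libraries over 10% mitochondrial, where it was 0.30 against 0.33 for Itgav. Normalised reads were 197, 189, 189, 170 and 176 in the WT littermates of Dp3Tyb and 216, 236, 270, 269 and 246 in Dp3Tyb. In the Ts1Rhr litters they were 184, 165, 176, 142 and 204 in WT and 207, 209, 210, 225 and 267 in Ts1Rhr. The groups did not overlap in either strain, but in the Ts1Rhr litters the mutant hearts at 207, 209 and 210 lay close to the highest WT heart at 204. The log2 fold change was 0.42 ± 0.09 (SE, 1.34-fold) in Dp3Tyb and 0.36 ± 0.11 (1.29-fold) in Ts1Rhr. These values rest on 60 to 371 reads per library. When values were scaled by non-mitochondrial library total, Ctsk groups overlapped in the Ts1Rhr litters, while Itgav still did not.

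Counted over the 9 genes tested, 3 were higher with no overlap in Dp3Tyb, against 0.501% of all genes tested, and 2 in Ts1Rhr, against 0.619%, and 0 were lower with no overlap, against 0.474% and 0.498%. Itgav and Ctsk were among 22 genes that were higher with no overlap in both strains, 0.151% of 14605 genes. Other genes of that list outside the duplicated region included Entpd1, Procr, Clec4g and Mal. These counts are fixed by how Itgav, Ecm1 and Ctsk were chosen, and nothing is read from them. Without the 7 libraries with over 10% mitochondrial reads, 4 of 9 genes did not overlap in Dp3Tyb (Itgav, Ecm1, Ctsk and Itgb5, against 2.49% of all genes in these 8 hearts) and 3 in Ts1Rhr (Itgav, Ecm1 and Ctsk, against 9.79% of all genes in these 5 hearts). On the log2 scale, the change of Itgav from WT was smaller in Dp3Tyb than in Ts1Rhr by 0.10 ± 0.08 (SE). It was larger in Dp3Tyb by 0.13 ± 0.10 for Ecm1 and by 0.06 ± 0.14 for Ctsk. These differences were not tested, because the 3 genes were picked for higher values in both strains.

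Of the beta subunits that pair with alpha-v, Itgb1, Itgb3, Itgb5 and Itgb8 showed no difference that passed the test in either strain. Itgb6 did not pass the filter and was not tested. None of the 6 partner, ligand and carrier genes tested passed by limma in Dp3Tyb, against 0.0542% of all genes, or in Ts1Rhr, against 0.0269%. The same 6 genes gave 0 calls at an unadjusted p under 0.05 (2.8% and 5.52% of all genes), 0 by DESeq2 (0.23% and 0.168% of all genes) and 0 by edgeR (0.061% and 0.0269%). None of the 6 was separated from WT without overlap in either direction, which was true of 0.975% of all genes in Dp3Tyb and 1.12% in Ts1Rhr.

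Itgb1, the subunit shared by many alpha chains, was the most abundant integrin gene of the group. It held 14902, 15291, 14725, 15048 and 20652 normalised reads in the WT littermates of Dp3Tyb and 15596, 15414, 15444, 15131 and 18530 in Dp3Tyb. Replicate 5 was the highest of each group, and the other 8 hearts lay between 14725 and 15596. In the Ts1Rhr litters the values were 16808, 16038, 15013, 18060 and 14872 in WT and 16997, 17500, 14966, 15453 and 15132 in Ts1Rhr. The log2 fold change was -0.0005 ± 0.11 in Dp3Tyb (95% interval -0.23 to 0.23, limma adjusted p = 0.99996) and -0.01 ± 0.08 in Ts1Rhr (-0.18 to 0.15, adjusted p = 0.968), and both values were above 0 without the libraries with over 10% mitochondrial reads, at 0.04 and 0.02.

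Itgb5, whose heterodimer with alpha-v is a vitronectin receptor, lies on chromosome 16 like the duplications, at 33829665 to 33949338, outside both of them. Its values were 1910, 1914, 1794, 1943 and 1277 in the WT littermates of Dp3Tyb, 1955, 2030, 2053, 1986 and 1476 in Dp3Tyb, 1545, 1586, 1786, 1376 and 2044 in the WT littermates of Ts1Rhr, and 1889, 1512, 2367, 1984 and 2195 in Ts1Rhr. Replicate 5 was the lowest of each Dp3Tyb litter group, the reverse of Itgb1, and 4 of 5 Dp3Tyb hearts lay above every WT heart. The log2 fold change was 0.11 ± 0.13 in Dp3Tyb (95% interval -0.18 to 0.40, limma adjusted p = 0.99996) and 0.25 ± 0.13 in Ts1Rhr (-0.03 to 0.53, adjusted p = 0.795), where 2 of 5 hearts exceeded every WT heart. The Dp3Tyb value ran from -0.002 without WT replicate 5 to 0.20 without Dp3Tyb replicate 5, and the Ts1Rhr value was 0.14 with the mitochondrial share as a covariate. The interval in Ts1Rhr includes changes as large as that of Itgav.

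Itgb1 and Itgb5 took different values in the libraries with a high mitochondrial share. Itgb1 lay between 16038 and 20652 in the 7 libraries above 10% and between 14725 and 15596 in the other 13, with no overlap. Itgb5 lay between 1277 and 1889 in the 7 libraries and between 1786 and 2367 in the 13. In the 7 libraries the share gave Pearson r = 0.943 with Itgb1 and -0.824 with Itgb5, and in the 13 it gave 0.272 and -0.14. Without the 2 farthest libraries these r were 0.982, -0.508, 0.551 and 0.227, in the same order. These 2 genes were singled out after their values were seen, so the ranges and r are a description and no p is given. The part of the mitochondrial share in the values of either gene was not tested.

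**Figure D2:**
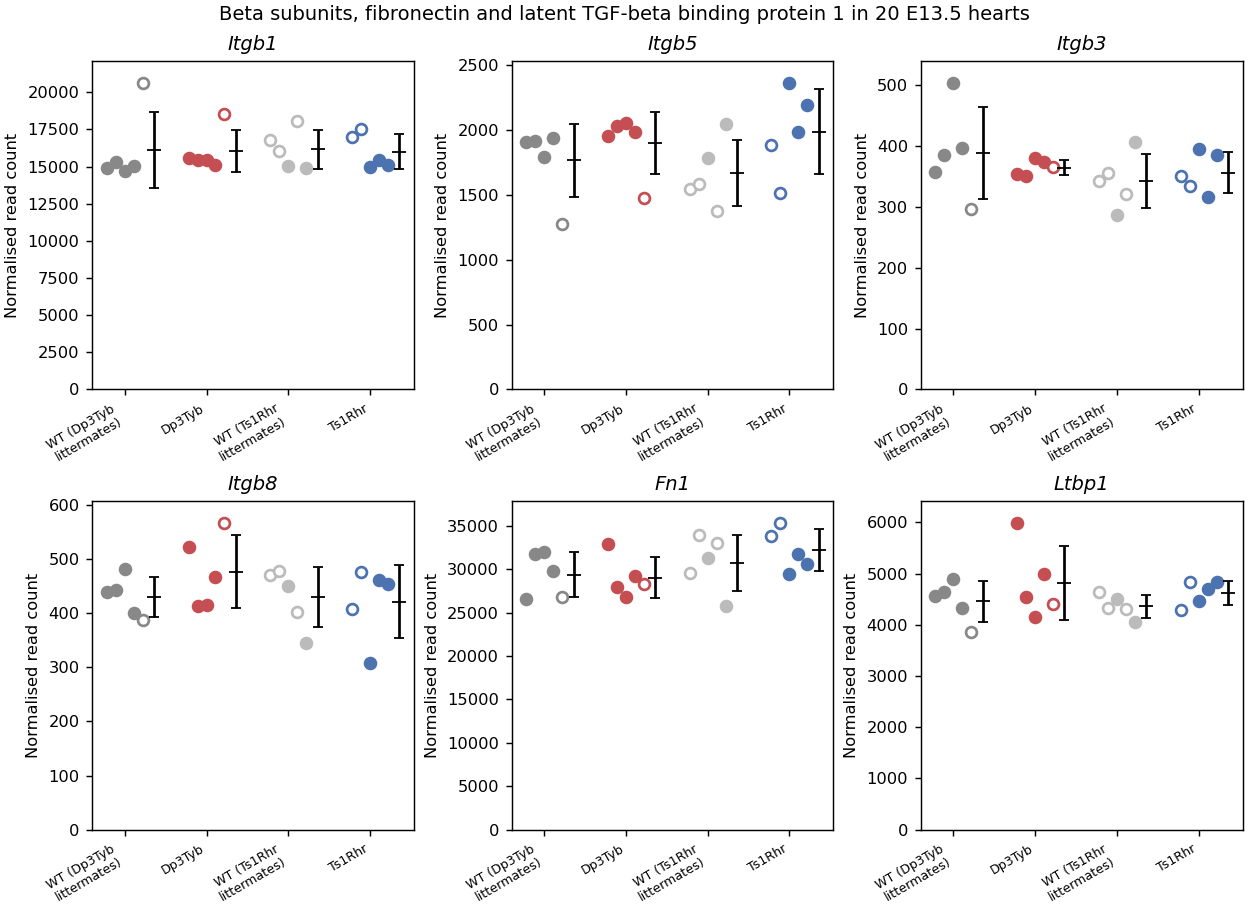
Normalised read counts of Itgb1, Itgb5, Itgb3, Itgb8, Fn1 and Ltbp1 in each of 20 E13.5 hearts, by group, with the mean ± SD of 5 hearts beside each group and open points for libraries with over 10% mitochondrial reads. In every panel mutant and WT hearts overlap, and within each group the open points are the highest values of Itgb1 and the lowest of Itgb5.

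Itgb3, known from platelets and osteoclasts, was low and overlapped in both strains. Its values were 357, 384, 504, 397 and 297 in the WT littermates of Dp3Tyb and 353, 350, 380, 373 and 365 in Dp3Tyb, so the mutant hearts spanned a narrow range inside that of WT. In the Ts1Rhr litters they were 342, 356, 287, 322 and 407 in WT and 351, 335, 394, 315 and 384 in Ts1Rhr. The log2 fold changes were -0.07 ± 0.12 (95% interval -0.33 to 0.19, limma adjusted p = 0.99996) and 0.06 ± 0.10 (-0.16 to 0.28, adjusted p = 0.858). The first ran from -0.16 without WT replicate 5 to 0.03 without WT replicate 3 and was -0.17 with array weights, and the second ran from -0.002 without WT replicate 3 to 0.12 without WT replicate 5. Platelet and megakaryocyte markers summed to between 88.1 and 276 normalised reads per heart. Of these, 0 of 6 passed the limma test in Dp3Tyb and 0 of 5 in Ts1Rhr, against 0.0542% and 0.0269% of all genes. At an unadjusted p under 0.05 there were 1 of 6 (Gp1bb, lower) and 0 of 5, against 2.8% and 5.52%, with 0 by DESeq2 and edgeR.

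Itgb8, whose heterodimer with alpha-v activates latent TGF-β, was also low. It held 439, 442, 481, 402 and 388 normalised reads in the WT littermates of Dp3Tyb, 522, 413, 416, 468 and 568 in Dp3Tyb, 472, 478, 451, 402 and 346 in the WT littermates of Ts1Rhr and 407, 476, 309, 461 and 455 in Ts1Rhr. In Dp3Tyb 2 of 5 hearts were above every WT heart, and in Ts1Rhr none was and the lowest heart was a mutant. The log2 fold change was 0.14 ± 0.10 in Dp3Tyb (95% interval -0.09 to 0.37, limma adjusted p = 0.99996) and -0.03 ± 0.13 in Ts1Rhr (-0.32 to 0.25, adjusted p = 0.943). The Dp3Tyb value was 0.08 without Dp3Tyb replicate 5 and 0.02 with array weights, and the Ts1Rhr value ran from -0.11 without WT replicate 5 to 0.07 without Ts1Rhr replicate 3.

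Fibronectin, the main ligand expressed here, did not pass the test either. Fn1 held 26607, 31778, 31992, 29809 and 26773 normalised reads in the WT littermates of Dp3Tyb and 32961, 27962, 26807, 29231 and 28256 in Dp3Tyb. In the Ts1Rhr litters it held 29562, 34003, 31299, 33008 and 25736 in WT and 33887, 35375, 29469, 31706 and 30645 in Ts1Rhr. Groups overlapped throughout, and the log2 fold changes were -0.02 ± 0.09 (95% interval -0.21 to 0.18, limma adjusted p = 0.99996) and 0.07 ± 0.09 (-0.12 to 0.27, adjusted p = 0.815). The Ts1Rhr value was 0.01 without WT replicate 5 and 0.03 with array weights.

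Vtn, the vitronectin gene, was at or near 0 in these hearts. It had 0 reads in 11 of 20 libraries and at most 3 reads in any, which is at the floor of 3 reads used here, so no fold change is given. The floor covers counting error only.

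Ltbp1, the carrier of latent TGF-β, had 4558, 4644, 4892, 4319 and 3855 normalised reads in the WT littermates of Dp3Tyb and 5993, 4551, 4149, 4996 and 4408 in Dp3Tyb. In the Ts1Rhr litters it had 4641, 4332, 4502, 4303 and 4044 in WT and 4295, 4831, 4454, 4690 and 4842 in Ts1Rhr, where 3 of 5 mutant hearts lay above every WT heart. Dp3Tyb replicate 1 stood highest of all 20 hearts. The log2 fold changes were 0.11 ± 0.10 (95% interval -0.12 to 0.34, limma adjusted p = 0.99996) and 0.08 ± 0.06 (-0.05 to 0.21, adjusted p = 0.795). The Dp3Tyb value was 0.02 without Dp3Tyb replicate 1 and 0.05 with array weights. The difference between the strains in the change from WT did not pass for any of the 6 genes (limma, adjusted p = 0.99966 for each, against 0.013% of 15348 genes called, with 0 of 6 at an unadjusted p under 0.05, against 1.52%, 0 by DESeq2, against 0.0195%, and 0 by edgeR, against 0.013%). Between the WT groups none of these 6 genes passed either (0 of 6 by limma, adjusted p between 0.833 and 0.986, against 0% of 15348 genes called by limma, 0 unadjusted, against 5.84%, 0 by DESeq2, against 0.0391%, and 0 by edgeR, against 0%). With array weights, under which 3297 genes passed between the WT groups, Itgb3 did as well, at -0.29 (limma, adjusted p = 0.0348).

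**Figure D3:**
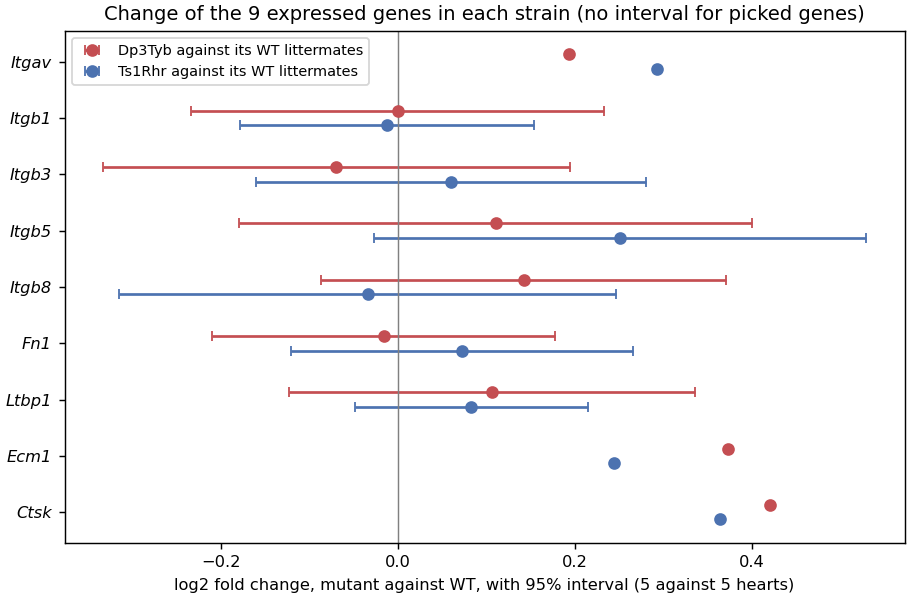
Log2 fold change of the 9 expressed genes in Dp3Tyb and Ts1Rhr against their own WT littermates, as limma estimates on log2(value + 1) with 95% intervals, 5 against 5 hearts. The intervals of Itgb1, Itgb3, Itgb5, Itgb8, Fn1 and Ltbp1 span 0, and Itgav, Ecm1 and Ctsk, which were chosen for higher values, are drawn without an interval.

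Ecm1 and Ctsk are close neighbours, with lower coordinates 235 kb apart on chromosome 3, and 8 genes start between them. Of these, 5 were tested in both strains. The first of them after Ctsk was Ctss, which encodes the related protease cathepsin S. It had a log2 fold change of 0.28 ± 0.14 in Dp3Tyb and 0.19 ± 0.13 in Ts1Rhr (limma adjusted p = 0.99996 and 0.795). The other 4, Golph3l, Ensa, Mcl1 and Adamtsl4, had log2 fold changes of 0.01, 0.002, -0.002 and 0.10 in Dp3Tyb and -0.08, 0.07, -0.04 and -0.03 in Ts1Rhr. Arnt, on the other side of Ctsk and closer to it than Ctss, was at -0.01 ± 0.05 and -0.05 ± 0.05. Of all 61 genes whose lower coordinate lay within 500 kb of either gene, those between them included, 40 were tested in Dp3Tyb and 41 in Ts1Rhr, 22 were above 0 in each, and the medians were 0.0016 and 0.01. None passed the limma test, DESeq2 or edgeR in either strain, and 1 of 40 and 2 of 41 had an unadjusted p under 0.05, against 2.8% and 5.52% of all genes, shares from which nothing is read. None was higher with no overlap, and Gm4349 was lower with no overlap in Ts1Rhr, as were 0.498% of all genes. Anxa9 had the highest log2 fold change of this neighbourhood in both strains, 0.84 ± 0.25 and 0.45 ± 0.26, at means of 17.4 and 16.5 normalised reads in the mutants.

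**Figure D4:**
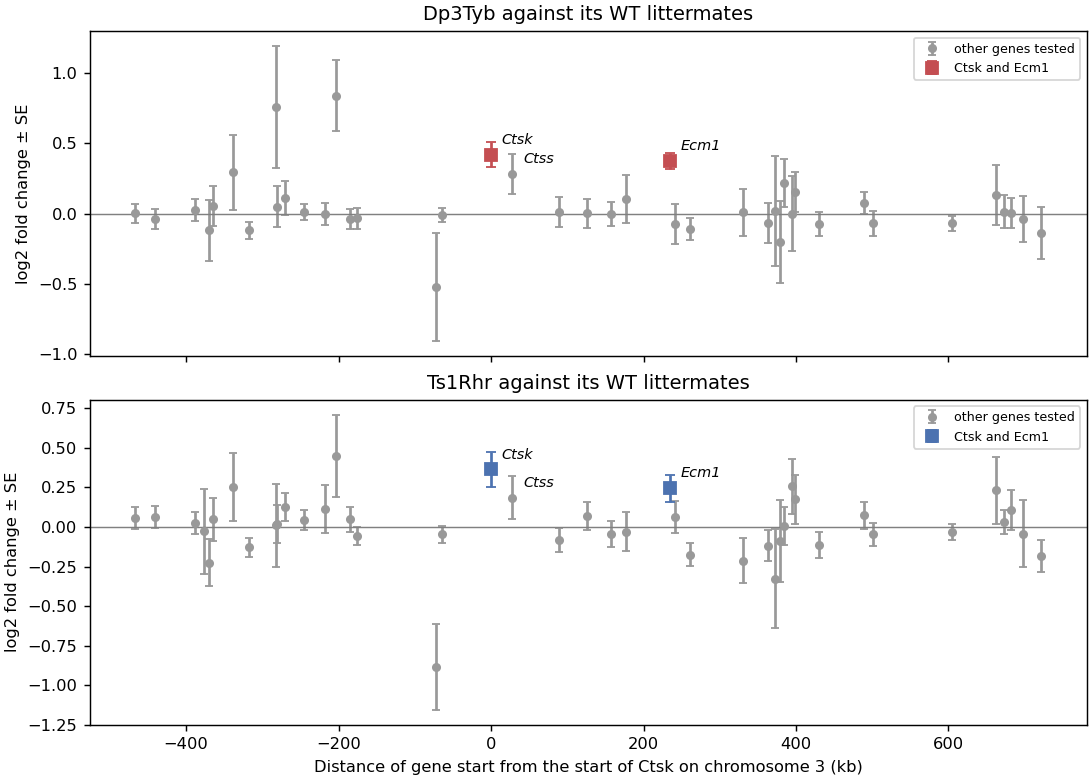
Log2 fold change ± SE of genes tested within 500 kb of Ctsk or Ecm1, by distance of the gene's lower coordinate from that of Ctsk, in Dp3Tyb (top) and Ts1Rhr (bottom). Squares are Ctsk and Ecm1 and grey points are the other genes, whose medians were 0.0016 in Dp3Tyb and 0.01 in Ts1Rhr.

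Across hearts of a group, no relation among the picked genes passed a test. After removal of group means, 7 relations among Itgav, Ecm1, Ctsk and the beta subunits were taken over 20 hearts and none passed. Itgav and Itgb8 gave Pearson r = 0.494 (permutation p = 0.0413, adjusted p = 0.289) and Spearman rho = 0.528 (permutation p = 0.0282, adjusted p = 0.197), with r = 0.270 without the 2 hearts farthest from the median of Itgav, 0.557 in the Dp3Tyb litters and 0.507 in the Ts1Rhr litters. Itgav and Ecm1 gave r = 0.447 (permutation p = 0.287, adjusted p = 0.584) and rho = 0.319 (permutation p = 0.232, adjusted p = 0.786), with r = 0.0651 without the 2 farthest hearts, -0.355 in the Dp3Tyb litters and 0.574 in the Ts1Rhr litters.

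Ctsk rose with markers of macrophages and of fibroblasts and cushion mesenchyme from heart to heart. These were 2 of 12 relations of Itgav, Ecm1 and Ctsk with total reads, the mitochondrial share and the 2 marker scores, each score being the mean log2(value + 1) of its 10 genes. With the macrophage score, Ctsk gave r = 0.631 (permutation p = 0.00207, adjusted p = 0.0124) and rho = 0.693 (permutation p = 0.00123, adjusted p = 0.0148), r was 0.601 without the 2 hearts farthest from the median of Ctsk, 0.624 in the Dp3Tyb litters and 0.678 in the Ts1Rhr litters. With the fibroblast and cushion mesenchyme score it gave r = 0.632 (permutation p = 0.00118, adjusted p = 0.0124) and rho = 0.589 (permutation p = 0.00687, adjusted p = 0.0412), r was 0.596 without the 2 farthest hearts, 0.616 in the Dp3Tyb litters and 0.647 in the Ts1Rhr litters. In the 13 libraries with at most 10% mitochondrial reads r was 0.722 (adjusted p = 0.0472, permutation test) for macrophages and 0.734 (adjusted p = 0.0703, permutation test) for mesenchyme, so the second no longer passed. Ctsk also varied with measures of the library, without passing over 20 hearts. With total reads it gave r = 0.401 (permutation p = 0.0489, adjusted p = 0.117) and rho = 0.409 (permutation p = 0.0703, adjusted p = 0.169), with r = 0.227 without the 2 farthest hearts, 0.0905 in the Dp3Tyb litters and 0.863 in the Ts1Rhr litters. With the mitochondrial share, which forms 2 separate sets of libraries, it gave r = -0.46 (permutation p = 0.0436, adjusted p = 0.117) and rho = -0.46 (permutation p = 0.0647, adjusted p = 0.169), with r = -0.35 without the 2 farthest hearts, -0.21 in the Dp3Tyb litters and -0.72 in the Ts1Rhr litters. Scaled by non-mitochondrial library total both passed, at r = 0.599 (adjusted p = 0.0139, permutation test) and -0.68 (adjusted p = 0.00464, permutation test), and in the 13 libraries with at most 10% mitochondrial reads neither passed, with r = -0.29 for the share. The part of depth and of the mitochondrial share in the relations of Ctsk with the marker scores was not tested. Over 20 hearts Itgav and Ecm1 gave no relation that passed with either score. Ecm1 with the mesenchyme score gave r = -0.42 (adjusted p = 0.0523, permutation test), and r = -0.83 (adjusted p = 0.0458, permutation test) in the 13 libraries with at most 10% mitochondrial reads, but its sign turned to r = 0.0514 (adjusted p = 0.803, permutation test) when values were scaled by the non-mitochondrial library total.

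**Figure D5:**
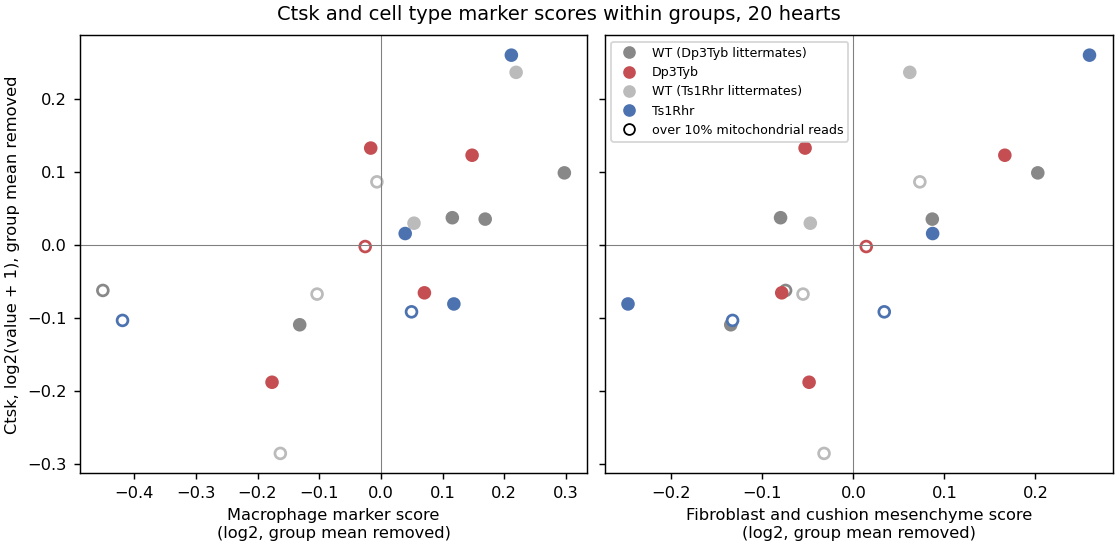
Ctsk, as log2(value + 1), against the macrophage score (left) and the fibroblast and cushion mesenchyme score (right), each with its group mean removed, in 20 hearts coloured by group, with open points for libraries with over 10% mitochondrial reads. Ctsk rises with each score, with r = 0.631 and 0.632.

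Most genes of the same marker lists had values above 0 in mutant hearts, and none passed the test. All 10 macrophage markers had a log2 fold change above 0 in Dp3Tyb (median 0.27) and 9 of 10 in Ts1Rhr (median 0.33), where 48.9% and 49.6% of all genes tested were above 0 with medians of -0.003 and -0.002. None passed the limma test, DESeq2 or edgeR. At an unadjusted p under 0.05 there were 2 in Dp3Tyb and 5 in Ts1Rhr, all higher, where 2.8% and 5.52% of all genes had such a p. Lyz2, the macrophage lysozyme gene, was higher with no overlap in Ts1Rhr, as were 0.619% of all genes. Their summed level was 1538 to 2386 normalised reads in the WT littermates of Dp3Tyb, 2207 to 2619 in Dp3Tyb, 1728 to 2096 in the WT littermates of Ts1Rhr and 1883 to 2688 in Ts1Rhr. Fibroblast and cushion mesenchyme markers were above 0 for 10 of 10 genes in Dp3Tyb (median 0.19) and 9 of 10 in Ts1Rhr (median 0.09), 0 passed the limma test (0 and 1 unadjusted, 0 by DESeq2 and edgeR), and their sums ran from 73488 to 121726, 101033 to 134360, 85516 to 125500 and 85345 to 148373 in the same order of groups. Osteoclast markers were scarce, with 4 of 6 (Ocstamp, Dcstamp, Atp6v0d2 and Oscar) under 10 normalised reads in every heart and a summed level of 32.2 to 99.8. The other 2, Acp5 and Calcr, had log2 fold changes of 0.47 and -0.76 in Dp3Tyb and 0.44 and -0.77 in Ts1Rhr, and neither passed the limma test (1 in each strain unadjusted, Calcr, 0 by DESeq2 and edgeR). The part of these cell types in the values of Ctsk, Itgav or Ecm1 was not tested.

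The genes whose pattern over 20 hearts was most like each picked gene, by Pearson r of log2(value + 1) with group means removed, were taken from 15348 genes. For Itgav they were Thbs1, a matrix glycoprotein that binds integrins and activates latent TGF-β (r = 0.867), Ccn1, a matricellular ligand of alpha-v integrins (0.843), Suco (0.842), Gon4l (0.804) and Ndc1 (0.798). For Ecm1 they were Treml2 (0.838), the endocytic GTPase gene Dnm2 (0.829), Cpa4 (0.773), Ankfy1 (0.759) and Foxm1 (0.727). For Ctsk they were Sesn1 (0.881), Abca5 (0.859), the fibril-associated collagen gene Col14a1 (0.851), Nherf1 (0.842) and Gm42742 (0.837). With values scaled by non-mitochondrial library total, r with Itgav was 0.747 for Thbs1, 0.667 for Ccn1, 0.890 for Suco, 0.864 for Gon4l and 0.724 for Ndc1. Under that scaling these r were 0.741 to 0.862 for Ecm1 and 0.881 to 0.932 for Ctsk. The 20 hearts share 1 normalisation, and no p is given.

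The wider pathway was described by lists of genes chosen with earlier results of these data known. Over all of them, 98 genes were tested in each strain and 0 passed the limma test, and 0 passed by DESeq2 and edgeR. At an unadjusted p under 0.05 there were 4 in Dp3Tyb and 12 in Ts1Rhr, all higher, where 2.8% and 5.52% of all genes had such a p. Of the 98, 0 were higher and 1 (Parva) lower with no overlap in Dp3Tyb, against 0.501% and 0.474% of all genes, and 1 (Ctso) was higher and 0 lower in Ts1Rhr, against 0.619% and 0.498%. Of the integrin alpha subunits beside Itgav, 9 of 14 had a log2 fold change above 0 in Dp3Tyb (median 0.03) and 14 of 14 in Ts1Rhr (median 0.12). The ends of this list were Itga4 (0.37 ± 0.20) and Itga10 (-0.09 ± 0.22) in Dp3Tyb and Itga7 (0.53 ± 0.37) and Itga1 (0.01 ± 0.07) in Ts1Rhr. The further beta subunits Itgb2 and Itgb4 were 0.12 ± 0.16 and 0.10 ± 0.20 in Dp3Tyb and 0.07 ± 0.21 and 0.12 ± 0.20 in Ts1Rhr. Other alpha-v ligands were above 0 for 9 of 11 genes in Dp3Tyb (median 0.10) and 11 of 11 in Ts1Rhr (median 0.22, or 0.076 with array weights), led in both by Vwf, the platelet adhesion protein von Willebrand factor, at 0.39 ± 0.23 and 0.43 ± 0.17. The fibrinogen genes Fga, Fgb and Fgg, ligands made in the liver, stayed under 10 normalised reads in every heart.

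Genes of latent TGF-β and its matrix carriers were above 0 for 10 of 13 in each strain, with medians of 0.10 and 0.14. The highest log2 fold change in Dp3Tyb was that of Nrros, a microglial and macrophage carrier of latent TGF-β1 (0.53 ± 0.48), and the highest in Ts1Rhr that of Ltbp2 (0.41 ± 0.34), and the lowest were Fbn2 (-0.08 ± 0.12) and Tgfb3 (-0.06 ± 0.10). Receptors and SMADs were above 0 for 8 of 10 and 7 of 10 genes with medians of 0.02 and 0.06, with the receptor gene Acvrl1 highest (0.22 ± 0.21 and 0.28 ± 0.24) and Smad4 lowest (-0.04 ± 0.06 and -0.13 ± 0.07) in both strains. Genes that respond to TGF-β were above 0 for 8 of 12 and 10 of 12, with medians of 0.03 and 0.10, from Acta2 (-0.09 ± 0.06) to Col1a1 (0.37 ± 0.22) in Dp3Tyb, and with Ldlrad4 (-0.11 ± 0.09) lowest in Ts1Rhr. The proteins that join integrins to actin, such as talin and kindlin, were above 0 for 9 of 18 genes in Dp3Tyb (median -0.004) and 14 of 18 in Ts1Rhr (median 0.06). Their ends were Lims2 (0.39 ± 0.37) and Tln2 (-0.12 ± 0.07) in Dp3Tyb and Lims2 (0.46 ± 0.28) and Fermt2 (-0.09 ± 0.07) in Ts1Rhr. Parva, which encodes the actin-binding protein alpha-parvin, was lower with no overlap in Dp3Tyb at means of 3307 against 3431 normalised reads (-0.05 ± 0.05), did not pass the limma test, and overlapped in Ts1Rhr (0.01 ± 0.05).

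Among proteases, all 10 cathepsins beside Ctsk had a log2 fold change above 0 in both strains, with medians of 0.11 in Dp3Tyb and 0.17 in Ts1Rhr. At an unadjusted p under 0.05 there were 2 (Ctsl and Ctsc) and 4 (Ctsz, Ctsl, Ctso and Ctsc) of them, against 2.8% and 5.52% of all genes, and 0 passed the limma test in either strain. Ctss was highest in Dp3Tyb (0.28 ± 0.14), the lysosomal aspartyl protease gene Ctsd in Ts1Rhr (0.25 ± 0.13), and Ctsa was lowest in both (0.0002 ± 0.06 and 0.06 ± 0.06). Summed over the list, the cathepsins held 14331 to 16851 normalised reads in the WT littermates of Dp3Tyb against 15460 to 18650 in Dp3Tyb, and 14250 to 17016 against 16043 to 19236 in the Ts1Rhr litters, so the sums overlapped. The mean log2(value + 1) of the 10 cathepsins lay above every WT heart in 5 of 5 Dp3Tyb and 4 of 5 Ts1Rhr hearts. The same count was 0 to 3 of 5 hearts in Dp3Tyb and 1 to 4 in Ts1Rhr for the other pathway lists, and 0 to 3 and 0 to 4 for the marker lists (2 and 4 for macrophages). Ctso was higher with no overlap in Ts1Rhr, as were 0.619% of all genes. The cystatin gene Cst3, an inhibitor of cysteine cathepsins, was at 0.14 ± 0.14 and 0.23 ± 0.11, and Cstb at -0.05 ± 0.09 and 0.12 ± 0.08. Matrix metalloproteinases and their TIMP inhibitors were above 0 for 8 of 9 genes in Dp3Tyb (median 0.10, from Mmp15 at -0.07 ± 0.13 to Timp1 at 0.20 ± 0.14) and 7 of 9 in Ts1Rhr (median 0.05, or 0.16 with no filter on low values, from Mmp16 at -0.13 ± 0.14 to Mmp23 at 0.33 ± 0.13). The known binding partners of ECM1 that were tested, Hspg2 (perlecan) and Fbln1 (fibulin 1), were at -0.03 ± 0.23 and 0.11 ± 0.10 in Dp3Tyb and at 0.15 ± 0.10 and 0.13 ± 0.09 in Ts1Rhr.

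Among the other marker lists 0 genes passed the limma test. Cardiomyocyte markers had median log2 fold changes of -0.11 and -0.03, endothelial markers -0.002 and 0.05, epicardial markers 0.03 and 0.05, smooth muscle and pericyte markers 0.03 and -0.03, cartilage markers 0.07 and -0.01, and erythroid markers 0.18 and 0.21 (6 of 6 and 6 of 7 genes above 0). Lung and foregut epithelium markers were at 1.98 in Dp3Tyb and -1.83 in Ts1Rhr, neural crest and Schwann cell markers at 0.74 and -0.71, liver markers at -0.25 and -0.45 (2 genes tested), and megakaryocyte markers at 0.003 and 0.11. Over all marker lists 5 of 79 genes in Dp3Tyb and 9 of 80 in Ts1Rhr had an unadjusted p under 0.05, of which 2 and 6 were higher, against 2.8% and 5.52% of all genes, and 0 passed by DESeq2 or edgeR. Of the same genes, Gp1bb, a platelet receptor subunit gene, was lower with no overlap in Dp3Tyb, at means of 12.9 against 20.1 normalised reads, as were 0.474% of all genes, and Lyz2 was higher with no overlap in Ts1Rhr, against 0.619%. Their part in the values of the 10 genes was not tested.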

How the data were processed

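Dissected hearts were snap frozen, and total RNA was made into mRNA libraries (KAPA mRNA HyperPrep) for Illumina HiSeq sequencing. The submitters' processing notes name Trimmomatic 0.36, STAR 2.5.2a, RSEM 1.2.31, DESeq2, DESeq and GRCm38, and whether counting used strand is not given in the sources used here. The authors deposited 1 table of 48795 genes as a signal, reads divided by a size factor per library. In every library 100% of values were whole multiples of 1 step (tolerance 0.001), so whole reads were recovered, and all 20 libraries share 1 scaling. Reads carry no molecular identifiers, and floors cover counting error only.

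The deposited signal was tested as log2(value + 1) in limma 3.58.1 (R 4.3.3; trend and robust prior, 2-sided, Benjamini-Hochberg, threshold 0.05) in place of the DESeq2 of the study's methods, because the values are normalised. Genes needed at least 10 in at least 5 libraries. DESeq2 1.42.0 and edgeR 4.0.16 on recovered reads were alternatives, beside pseudocounts, filter, scaling, weights, a mitochondrial covariate and omitted libraries. Of 100 genes with a simulated 1.5-fold change, 38% were recovered in Dp3Tyb (among 14591 genes) and 46% in Ts1Rhr (among 14725), so smaller changes can be missed. These simulations gave 8 and 10 false calls. Correlations used 100000 permutations (scipy 1.17.1).

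Symbols and lengths came from GENCODE vM39 (44565 identifiers, 91.3%), and positions and promoters from RefSeq on GRCm38.p6, matched by symbol. Annotated genes overlapping Itgav, Ecm1, Fn1 and Ltbp1 held at most 10 reads in any library where they were in the table. Genes and lists were chosen with earlier results of these data known. Named genes were the 10 genes, the highest and lowest of the pathway lists per strain, neighbours within 500 kb and the 5 most alike genes. Others named were chosen after their values were seen. The lowest of the other alpha-v ligands and the ends of most marker lists are not named. The highest value of 1 list in Ts1Rhr is not reported here. The labels of control hearts, wt_d and wt_t, were read as littermates of Dp3Tyb and Ts1Rhr. Nothing says whether hearts of a group came from different litters, so p-values measure only the spread between these hearts.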

Additional observations from a re-analysis of the deposited data

Results flagged for a closer look

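In 4 of 36 groups of 5 hearts, 1 heart stood apart from the other 4 by Dixon's test at the 95% level. For a single group chance gives about 1 in 20, but the 36 groups share the same 20 libraries and are not independent. All 4 fell in 2 hearts, so no excess over chance is read from the count. Itgb1 was high in WT replicate 5 of the Dp3Tyb litters, at 20652 normalised reads against 14725 to 15291 in the others, and in Dp3Tyb replicate 5, at 18530 against 15131 to 15596. Itgb5 was low in the same 2 hearts, at 1277 against 1794 to 1943 and at 1476 against 1955 to 2053. These libraries had 19.5% and 15.5% mitochondrial reads, against 4.85% to 6.15% in the other 8 hearts of these litters, and the part of that share in either gene was not tested.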

How the results depend on the processing

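No paired analysis was made, because the labels carry no replicate numbers and name no pair of a mutant and a WT heart. In their listed order WT and mutant hearts alternate, and whether neighbours in that order are pairs is not given. The number of all genes past the threshold, 8 in Dp3Tyb, 4 in Ts1Rhr, 2 for the difference between strains and 0 between WT groups, became 34, 25, 3 and 6 with DESeq2, 57, 16, 3 and 3297 with array weights, and 45, 25, 3 and 3 with the mitochondrial share as a covariate. It was 30, 0, 2 and 0 without the libraries over 10% mitochondrial, 17 in Dp3Tyb and 11 in Ts1Rhr in the fit of all 20 libraries, 4 in Dp3Tyb and 0 for the difference with no filter, and 0 for the difference with TMM scaling and by non-mitochondrial library total. Leaving out each heart gave 2 to 13, 1 to 6, 0 to 3 and 0 to 2, and moved the first count by over 1.5 times for every heart but Dp3Tyb replicate 5 and the second for every heart but WT replicate 5 and Ts1Rhr replicates 2 and 3. Where limma called 0 genes in Ts1Rhr, 496 had an unadjusted p under 0.05. Of the 9 integrin and matrix genes tested, those higher with no overlap were 3 to 4 in Dp3Tyb (0.644% to 1.43% of all genes) and 2 to 3 in Ts1Rhr (0.774% to 1.93%) without each heart, and 1 in Ts1Rhr by non-mitochondrial library total (0.578%), alternatives added after seeing the data. The causes were not tested.

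Against WT, Itgav, Ecm1 and Ctsk kept their direction under every alternative, with log2 fold changes of 0.17 to 0.22, 0.36 to 0.40 and 0.39 to 0.47 in Dp3Tyb and 0.22 to 0.33, 0.15 to 0.31 and 0.29 to 0.42 in Ts1Rhr, the lowest for Itgav and Ecm1 in Ts1Rhr with array weights. Because Itgav, Ecm1 and Ctsk were picked for higher values in these same hearts, nothing is read from that direction being kept. Their ranges are given as a description. Other signs turned as follows. Scaled by non-mitochondrial library total, Itgb1 was 0.023 in Dp3Tyb, 0.012 in Ts1Rhr and -0.013 between WT groups, and Fn1 was 0.0071 in Dp3Tyb. With the mitochondrial covariate, Itgb1 was 0.011, 0.043, -0.059 between WT groups and -0.037 for the difference between strains, and Itgb5 was 0.029 between WT groups. Without the libraries over 10% mitochondrial, Itgb1 was 0.038, 0.023 and -0.0046, Itgb8 was 0.023 in Ts1Rhr, Ltbp1 was -0.042 for the difference, and between WT groups Itgb5 was 0.016, Fn1 -0.078 and Ctsk 0.028. With array weights, Itgb1 was 0.038 in Dp3Tyb, Itgb8 0.043 between WT groups and Ltbp1 -0.023 for the difference, and with TMM Itgb1 was 0.0038 in Dp3Tyb. Leaving out each heart gave -0.054 to 0.092, -0.045 to 0.029, -0.029 to 0.104 and -0.042 to 0.104 for Itgb1 in Dp3Tyb, in Ts1Rhr, between WT groups and for the difference. It gave -0.16 to 0.029 (Itgb3), -0.0024 to 0.20 (Itgb5, lowest without WT replicate 5) and -0.063 to 0.015 (Fn1) in Dp3Tyb, -0.0023 to 0.12 (Itgb3) and -0.11 to 0.073 (Itgb8) in Ts1Rhr, -0.049 to 0.068 (Itgb8) and -0.077 to 0.0089 (Ltbp1) between WT groups, and -0.058 to 0.074 (Ltbp1) for the difference, where Ctsk was -0.0023 without WT replicate 5 of the Ts1Rhr litters. Among correlations, scaling by non-mitochondrial library total turned Itgav with Ctsk (r = 0.354), Itgb1 (-0.557), Itgb3 (0.336), Itgb5 (0.454), total reads (0.613), the mitochondrial share (-0.526), macrophages (0.479) and mesenchyme (0.403), and Ecm1 with Ctsk (0.282), the share (-0.447), macrophages (0.3602) and mesenchyme (0.0514), and Itgav with total reads was 0.0693 without the libraries over 10% mitochondrial. By non-mitochondrial library total the relations with total reads of Itgav (the 0.613 above), Ecm1 (0.597) and Ctsk (0.599) and that of Ctsk with the share (-0.68) passed the threshold, and Ctsk with both marker scores kept its direction. With array weights Itgb3 (-0.29) and Ecm1 (0.18) were among the 3297 genes past the threshold between WT groups, and Ecm1, picked from values that included these WT hearts, is a description there. In Ts1Rhr array weights took the median log2 fold change of the other alpha-v ligands from 0.22 to 0.076 and that of endothelial markers from 0.05 to -0.024. With no filter on low values the median was 0.16 for metalloproteinases and TIMPs and 0.33 for osteoclast markers in Ts1Rhr, and 0.39 for the further beta subunits in Dp3Tyb.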
